A study of Mus musculus with 6 samples.

Results

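The insulin receptor signalling chain carries the insulin signal from the surface of the hepatocyte to its nucleus. It is described here by 9 genes, *Insr*, *Irs1*, *Irs2*, *Pik3r1*, *Akt1*, *Akt2*, *Foxo1*, *Foxo3* and *Trib1*, out of 18820 genes that the array measures with a probe set paired with 1 gene alone. Each of the 9 genes was read from 1 such probe set, and where a gene had several, the one with the highest mean over the 6 arrays was used. The study asked whether loss of estrogen receptor α (ERα) in the liver alone changes hepatic insulin action and the hepatic transcript profile. Each of 6 female mice on the C57BL/6J background gave liver RNA for 1 array (Affymetrix Mouse Gene 1.1 ST). The 3 control (CT) mice carried floxed ERα alleles (ERα fl/fl) without cre, and the 3 LERKO mice carried the same floxed alleles together with cre recombinase under the albumin promoter (Alb-cre/ERα fl/fl), so that effects of cre itself and of ERα loss cannot be told apart. The albumin promoter drives cre in hepatocytes, and other liver cells are not expected to lose ERα. The age of these mice, and whether they were fasted before collection, are not given in the sources used here.

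Insulin binds its receptor tyrosine kinase (*Insr*), which phosphorylates the adaptors IRS1 and IRS2. These recruit phosphoinositide 3-kinase through its regulatory subunit p85α (*Pik3r1*), and the lipid it makes activates the kinases AKT1 and AKT2. AKT phosphorylates the transcription factors FOXO1 and FOXO3 and keeps them out of the nucleus. In the fasted liver nuclear FOXO1 raises transcription of gluconeogenic genes and of *Irs2* itself, so that *Irs2* is both a part of the chain and one of its targets. Most of the signal is carried by phosphorylation, which RNA levels do not show. The study measured AKT phosphorylation in liver after insulin and reported similar levels in CT and LERKO mice.

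The promoters of both adaptors hold a short sequence that is also found in promoters which insulin represses, and they are shown for this reason. The letters searched were CAAAACA on both strands, the core of the insulin response element to which FOXO proteins bind, CACGTG, an E-box, GTAAACA on both strands, the FOXO consensus, and TGACGTCA, the cAMP response element. The estrogen response element was searched too and is not reported here. RefSeq promoter windows (GRCm38.p6, 250 bases before to 50 after each start site) were held for 7 of the 9 genes. In the stretches below, written 5′ to 3′ on the strand of the gene, capitals mark these motifs. *Irs2* (chr8:11008930-11009009, minus strand) and *Irs1* (chr1:82291440-82291589, minus strand) are shown up to the base before the start site. *Igfbp1* (chr11:7197637-7197716, plus strand) and *G6pc* (chr11:101367496-101367575, plus strand) are shown for comparison, as classic targets of FOXO1.
Irs2: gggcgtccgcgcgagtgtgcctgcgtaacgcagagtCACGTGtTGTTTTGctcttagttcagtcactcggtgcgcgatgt
Irs1: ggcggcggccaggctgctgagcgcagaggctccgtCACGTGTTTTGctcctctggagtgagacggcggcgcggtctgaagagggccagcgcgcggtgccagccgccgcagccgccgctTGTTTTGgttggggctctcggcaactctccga
Igfbp1: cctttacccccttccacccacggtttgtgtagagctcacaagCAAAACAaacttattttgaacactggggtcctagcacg
G6pc: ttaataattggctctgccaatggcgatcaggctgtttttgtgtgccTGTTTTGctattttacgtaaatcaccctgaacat

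In *Irs2* the core lay at −37 to −31 from the start site, with an E-box just ahead of it. In *Irs1* there were 2 cores, and the first overlapped an E-box. No window of *Pik3r1*, *Akt1*, *Akt2*, *Foxo1* or *Foxo3* held the core. A window of *Akt1* held the FOXO consensus at −161 to −155 from the start site, and no window of these 7 genes held the cAMP response element. Of 32851 windows of all genes, 6.28% held the core, 7.15% the E-box, 3.65% the FOXO consensus, 1.79% the cAMP response element and 0.408% both core and E-box. These letters are a description of the windows, not evidence that a factor binds there, and they were searched after the array values had been seen.

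*Esr1*, the targeted gene that encodes ERα, had signals of 8.45, 8.78 and 8.29 on the log2 scale in the CT mice and 6.75, 7.06 and 6.77 in the LERKO mice, so each array carries the level of its labelled genotype. All 8 hepatocyte markers tested (such as albumin and transthyretin) reached a signal of 100 (linear scale) in each of the 6 arrays, and their summed signal was 62700 to 66800 in CT and 61500 to 64500 in LERKO. A pair of arrays stood apart. In CT replicate 3 the summed signal of 5 pancreas markers was 1700, beside at most 103 elsewhere, and that of 6 skeletal muscle markers was 864, beside at most 214. In LERKO replicate 2 the summed signal of 6 adrenal cortex markers was 7140, beside at most 81 elsewhere. The adipose markers summed to 248 in LERKO replicate 2, beside at most 91.6 elsewhere. Among the other cells of the liver, the summed signal ranged from 2100 to 3380 in CT and from 2800 to 3210 in LERKO for 6 Kupffer cell markers, from 2580 to 3290 and from 2600 to 2960 for 6 endothelial markers, and from 3460 to 4900 and from 3650 to 4390 for 6 stellate cell markers, all overlapping. The 5 cholangiocyte markers, 4 of them below 100 in all arrays, summed to 174 to 220 in CT and 152 to 162 in LERKO, and the 2 red blood cell markers to 199 to 285 and 178 to 192. The part of other tissues or cells in the values below was not tested, and results are also given without these arrays.

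The 2 insulin receptor substrates had lower mean signals in LERKO liver than in CT liver, while *Foxo1* and *Pik3r1* had higher ones, and the receptor and both AKT kinases differed little. None of the 9 genes passed an adjusted p of 0.05 in limma, the smallest being 0.703. Over all 10633 probe sets kept the share called was 0% higher and 0% lower. *Esr1* itself did not pass (log2 fold change −1.65, adjusted p = 0.149 in limma), so with the signal filter used here the cutoff missed even the targeted gene. With a signal of 100 required in all 6 arrays, 3 probe sets were lower at this cutoff. For its arrays the study used limma at a false discovery rate of 5% and counted *Esr1* among its significant genes. The test with unequal variance given below is named in the study's general statistics, while limma was its test for the arrays. At an unadjusted p under 0.05 from limma, 2 of the 9 genes were counted (22.2%), beside 6.98% of all probe sets kept. *Irs2* was the 1 lower gene, beside 425 probe sets lower (4.0%), and *Foxo1* the 1 higher gene, beside 2.98% higher. The methods' t-test, with unequal variance, counted 0 of the 9 genes at that level and 455 of all probe sets kept, with 0 left after Benjamini-Hochberg adjustment. The CT and LERKO mice did not overlap for 1 of the 9 genes (11.1%), *Irs2*, which was lower in LERKO, beside 13.0% of all probe sets (5.91% higher and 7.13% lower). The median log2 fold change of the 9 genes was 0.02, with 5 genes higher and 4 lower in LERKO, and over all probe sets the median was −0.01, with 46.5% above 0. All 9 genes passed the filter on low signal, with 6 of 6 arrays at a signal of 100 or more. In bulk liver, fewer cells of a type and less RNA per cell cannot be told apart.

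**Figure D1:**
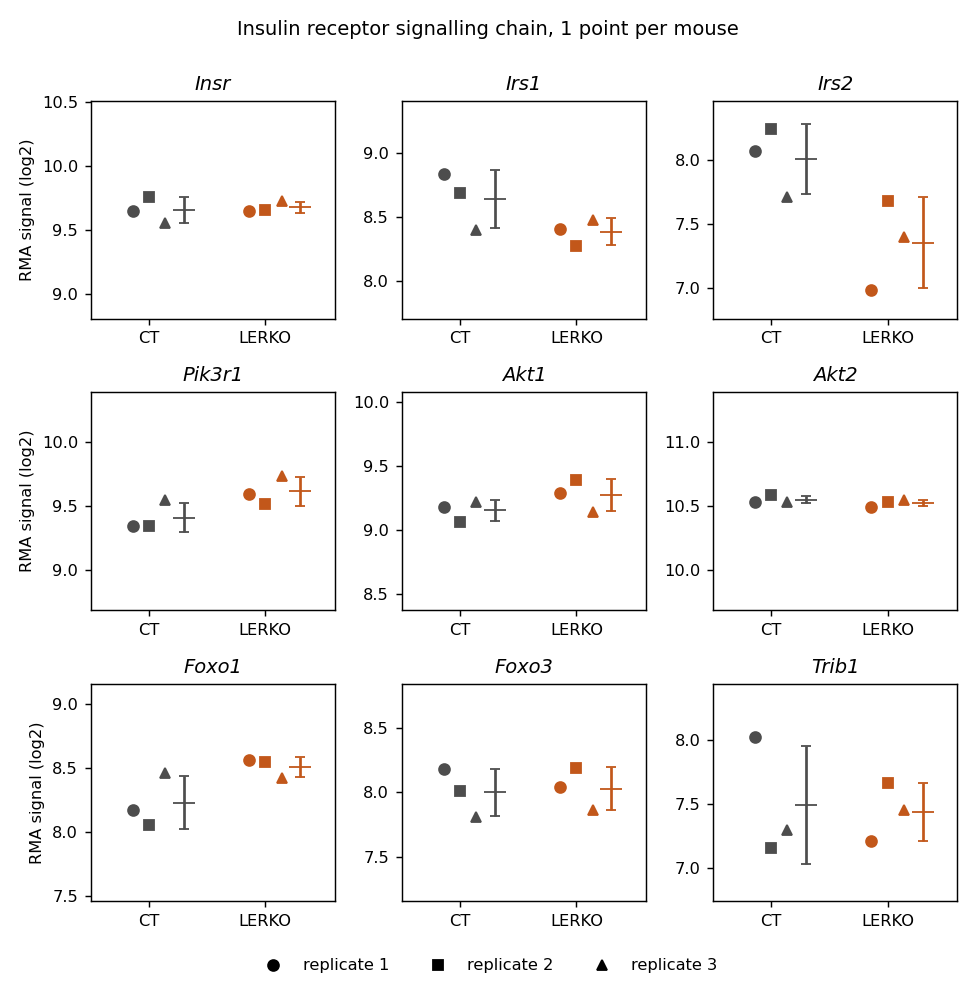
RMA signal (log2) of the 9 genes, with a point for each mouse and, beside the points, mean and SD of 3 CT (grey) and 3 LERKO (orange) mice; each panel spans the same log2 range. *Irs2* is the only gene whose groups do not overlap, with CT replicate 3 at 7.71 just above LERKO replicate 2 at 7.68.

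*Irs2*, the adaptor whose transcription follows fasting and feeding, showed the largest difference of the chain. Its signal was 8.07, 8.24 and 7.71 in the CT mice and 6.98, 7.68 and 7.40 in the LERKO mice. The groups did not overlap, but the lowest CT and the highest LERKO mouse nearly met. CT mice averaged 8.01 ± 0.27 (SD, n = 3) and LERKO mice 7.35 ± 0.35 (SD, n = 3). The log2 fold change was −0.65 (standard error 0.21, 95% confidence interval −1.15 to −0.16), a level at 63.7% of CT (limma, adjusted p = 0.703). An exact two-sided permutation test gave p = 0.1, the smallest that 3 mice against 3 allow. The mice that nearly met are the arrays with pancreas and adrenal genes, and without both the log2 fold change was −0.96 (limma, adjusted p = 0.392). With 1 array left out it ranged from −0.815 without LERKO replicate 2 to −0.466 without LERKO replicate 1, with adjusted p between 0.343 and 0.992. The unadjusted p from limma was above 0.05 without CT replicate 1 and without CT replicate 2.

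*Irs1*, the other main adaptor of the liver, had the second lowest log2 fold change. It stood at 8.84, 8.69 and 8.40 in the CT mice and at 8.41, 8.28 and 8.48 in the LERKO mice. CT replicates 1 and 2 were above all other mice, while CT replicate 3 fell within the LERKO range. The log2 fold change was −0.26 (standard error 0.13, 95% confidence interval −0.56 to 0.04; limma, adjusted p = 0.726). It ranged from −0.38 without CT replicate 3 (limma, adjusted p = 0.339) to −0.16 without CT replicate 1, and was −0.325 (limma, adjusted p = 0.408) without both arrays that stood apart. With all 6 mice the interval included 0.

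*Pik3r1* encodes p85α, which docks phosphoinositide 3-kinase on the phosphorylated adaptors. Its signal was 9.34, 9.34 and 9.54 in CT and 9.59, 9.51 and 9.73 in LERKO. Only CT replicate 3 and LERKO replicate 2 broke the separation, by 0.03 on the log2 scale. The log2 fold change was 0.20 (standard error 0.09, 95% confidence interval −0.02 to 0.43; limma, adjusted p = 0.709), which was 0.27 without CT replicate 3 and 0.32 (limma, adjusted p = 0.408) without both.

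**Figure D2:**
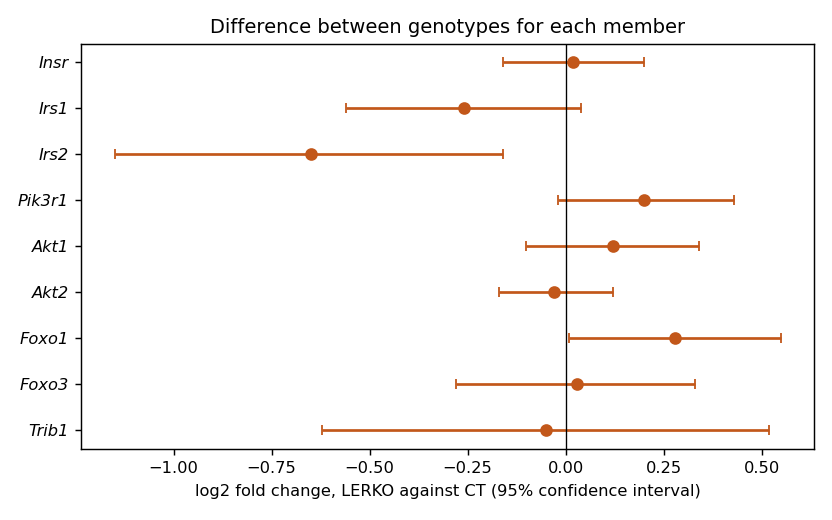
Log2 fold change (LERKO against CT) for the 9 genes, with 95% confidence intervals from limma that are not adjusted for the number of genes tested. The interval of *Irs2* lies below 0 (−1.15 to −0.16), that of *Foxo1* just above it (0.01 to 0.55), and the other 7 include 0.

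The FOXO factors at the end of the chain differed from each other in their values. *Foxo1*, the FOXO protein best known for its role in hepatic glucose production, had signals of 8.17, 8.06 and 8.46 in CT and 8.56, 8.55 and 8.42 in LERKO. CT replicates 1 and 2 lay below all LERKO mice, while CT replicate 3 lay among them. The log2 fold change was 0.28 (standard error 0.11, 95% confidence interval 0.01 to 0.55), a level at 121% of CT (limma, adjusted p = 0.703; exact two-sided permutation p = 0.2). Without CT replicate 3 it was 0.395 (limma, adjusted p = 0.323) and without CT replicate 2 it was 0.20 (limma, adjusted p = 0.796), so its size rested on single CT arrays. *Foxo3*, which shares the DNA motif of FOXO1, had 8.18, 8.01 and 7.81 in CT and 8.04, 8.19 and 7.86 in LERKO. The groups spanned nearly the same range, and the 95% confidence interval of the log2 fold change was −0.28 to 0.33. Its direction turned with the array left out, from −0.07 without CT replicate 3 to 0.12 without CT replicate 1. Whether the differences of the 2 FOXO genes differ was not tested.

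*Insr*, the receptor itself, was among the steadiest of the genes. The values were 9.65, 9.76 and 9.56 in the CT mice and 9.65, 9.66 and 9.73 in the LERKO mice. The LERKO mice lay inside the CT range. For this probe set the 95% confidence interval of the log2 fold change, −0.16 to 0.20, spans 0.895-fold to 1.15-fold. A second *Insr* probe set gave 9.30, 9.54 and 9.27 in CT and 9.52, 9.44 and 9.46 in LERKO. Its interval of −0.12 to 0.32 reaches 1.25-fold. With all 6 mice both probe sets had a mean slightly higher in LERKO, by 0.02 and 0.10, within the spread between mice. The first turned to −0.02 without CT replicate 3.

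The AKT kinases, which pass the signal on to FOXO proteins, glycogen synthase kinase and mTOR, varied little. *Akt2*, the main AKT of insulin action in liver, had signals of 10.53, 10.58 and 10.53 in CT and 10.49, 10.53 and 10.54 in LERKO, with a 95% confidence interval of −0.17 to 0.12, the narrowest of the chain. Its second probe set gave 9.81, 9.86 and 9.72 in CT and 9.85, 9.81 and 9.85 in LERKO. There the log2 fold change was 0.05, beside −0.03 in the first, so no direction can be given for *Akt2*. *Akt1* stood at 9.18, 9.06 and 9.22 in CT and at 9.29, 9.39 and 9.14 in LERKO. Its mean was higher in LERKO by 0.12 (95% confidence interval −0.10 to 0.34), within the spread between mice.

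*Trib1*, a pseudokinase of the tribbles family that directs C/EBPα to degradation and affects plasma lipids, had the widest interval. It was at 8.02, 7.16 and 7.30 in CT and at 7.21, 7.66 and 7.45 in LERKO. CT replicate 1 was the highest and CT replicate 2 the lowest, and all LERKO mice lay between them. The log2 fold change was −0.05 (95% confidence interval −0.62 to 0.52), and it was 0.21 without CT replicate 1 and −0.22 without CT replicate 2.

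**Figure D3:**
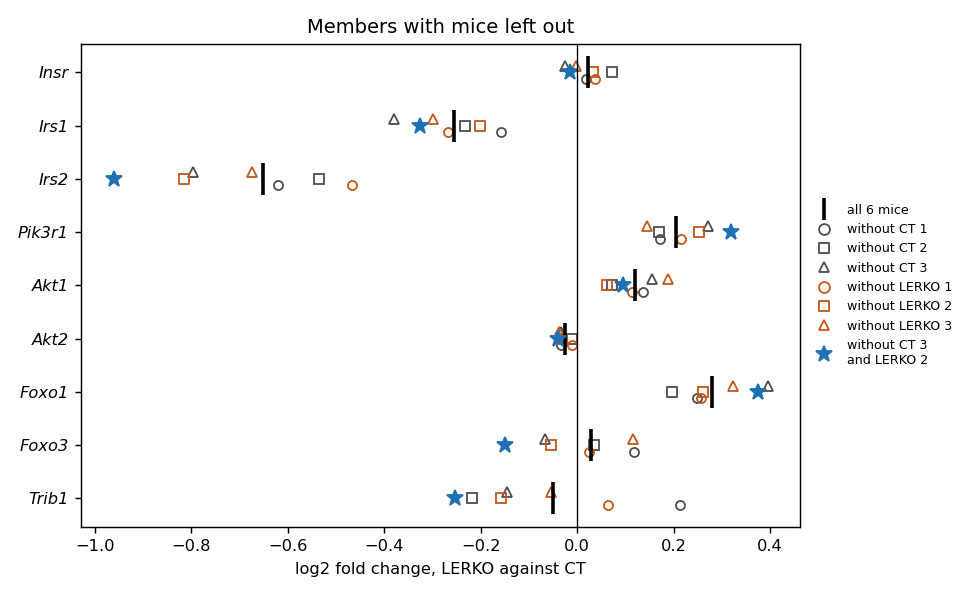
Log2 fold change of the 9 genes with all 6 mice (black bars), with 1 mouse left out (open symbols) and without CT replicate 3 and LERKO replicate 2 together (stars). *Irs2* and *Irs1* stay below 0 and *Foxo1*, *Pik3r1* and *Akt1* above 0 in all of these, while *Insr*, *Foxo3* and *Trib1* fall on both sides. *Akt2*, in its first probe set, also stays below 0 but reaches only −0.0393.

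Among other genes of the pathway, more had a lower than a higher mean in LERKO. Of 77 genes in 6 lists, 71 had a probe set paired with 1 gene and 49 passed the filter on low signal. In LERKO 19 of these 49 were higher and 30 lower, with a median log2 fold change of −0.04. Over all 49, 0 passed an adjusted p of 0.05 in limma, and 4 had an unadjusted p under 0.05 (8.16%, beside 6.98% of all probe sets). Without the 2 arrays that stood apart, that number was 7 of 49, and over all probe sets it rose too, from 742 to 1152 of 10633. With all arrays, the groups did not overlap for 14.3% of the 49 (2 higher and 5 lower), beside 13.0% of all probe sets.

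**Figure D4:**
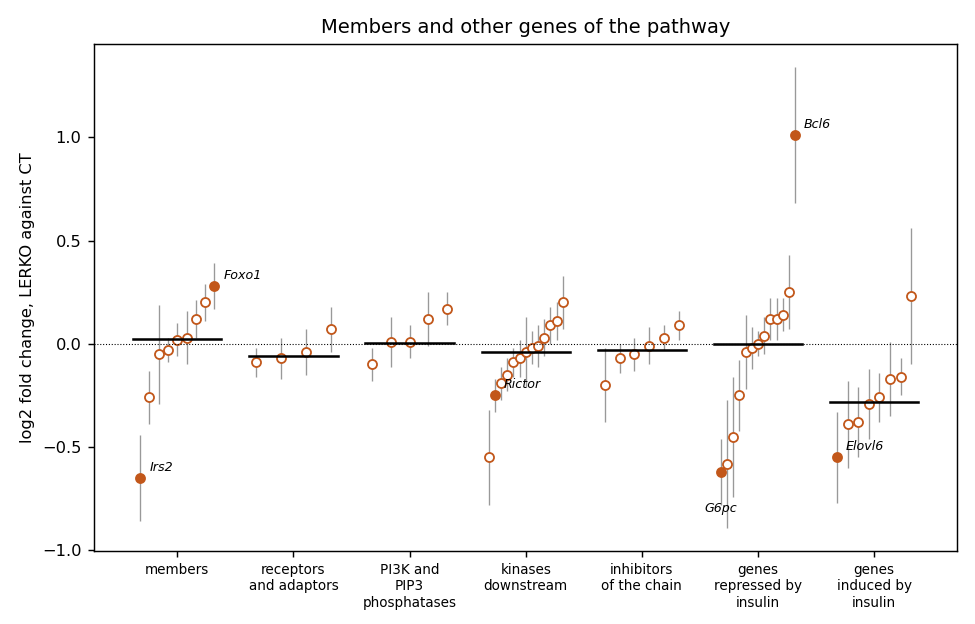
Log2 fold change (LERKO against CT), with standard errors, of the 9 genes and of 49 other genes in 6 lists, ordered by size within each list; black lines are medians and filled points have an unadjusted p under 0.05 in limma. The list of genes induced by insulin has its median at −0.28, and the other medians lie between −0.06 and 0.02.

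Among receptors and adaptors, 4 of 13 genes passed the filter, and their log2 fold changes lay between −0.09 and 0.07. *Cbl*, a ubiquitin ligase that insulin receptors recruit, had −0.09 and *Gab1*, a docking protein related to the IRS proteins, had −0.07, neither with a p under 0.05. *Igf1r*, the receptor of IGF-1, named after its values were seen, stayed below a signal of 100 in all 6 arrays. Of the enzymes that make or remove the lipid second messenger, 5 of 10 passed the filter. *Inpp5k*, a phosphatase of this lipid, had signals of 8.66, 8.61 and 8.43 in CT and 8.77, 8.75 and 8.69 in LERKO, with no overlap (log2 fold change 0.17, standard error 0.08; limma, adjusted p = 0.718). The log2 fold change was 0.10 without CT replicate 3, and also without both arrays that stood apart. *Pik3ca*, the catalytic partner of p85α, had 0.01 with a 95% confidence interval of −0.19 to 0.20, and *Pik3c2a*, a class II enzyme, had −0.10. *Pik3ca* is named after its value was seen.

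Of 13 kinases and regulators downstream that passed the filter, 9 were lower and 4 higher in LERKO, with a median of −0.04. *Rictor*, the scaffold of the mTOR complex that phosphorylates AKT, had signals of 8.00, 8.12 and 7.94 in CT and 7.68, 7.87 and 7.76 in LERKO. The groups did not overlap, with a log2 fold change of −0.25 (standard error 0.08, 95% confidence interval −0.45 to −0.05; limma, adjusted p = 0.703). It was −0.34 without the 2 arrays that stood apart. Among the lists, this one had the highest share of genes without overlap. The groups did not overlap for 4 of the 13 genes (30.8%), all lower, beside 13.0% of all probe sets (7.13% lower). The other 3, named after their values were seen, were *Sgk1*, a kinase related to AKT, with a log2 fold change of −0.55 (−0.28 without CT replicate 2), *Tsc1*, a brake on mTOR, with −0.19, and *Pdpk1*, the kinase that activates AKT, with −0.15 (limma, adjusted p from 0.703 to 0.74). Of 6 inhibitors of the chain kept, none had an unadjusted p under 0.05. *Ptpn1*, the phosphatase that removes phosphate from the insulin receptor, had 6.84, 6.72 and 6.82 in CT and 6.87, 6.93 and 6.87 in LERKO, which do not overlap but differ by only 0.09 (95% confidence interval −0.07 to 0.26). *Ptpn2*, a related phosphatase, reached a signal of 100 in 1 array and had −0.20. It ranged from −0.38 without CT replicate 3 to −0.05 without CT replicate 2, and was −0.47 without both arrays that stood apart, where its unadjusted p was under 0.05.

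Genes that insulin represses fell on both sides of 0. Of 13 kept, 7 were higher and 6 lower in LERKO, with a median of 0.00. *G6pc*, the catalytic subunit of glucose-6-phosphatase, the last step of glucose output, had signals of 12.05, 12.21 and 12.47 in CT and 11.37, 11.62 and 11.90 in LERKO. The groups did not overlap, with a log2 fold change of −0.62 (standard error 0.16; limma, adjusted p = 0.703), which was −0.50, with an unadjusted p above 0.05, without the 2 arrays that stood apart. The study's qPCR of glucose-6-phosphatase found no significant change in LERKO liver. *Bcl6*, a transcriptional repressor, had 6.28, 5.94 and 6.98 in CT and 6.96, 7.93 and 7.34 in LERKO. LERKO replicate 2 was the highest, and the groups met at CT replicate 3 (log2 fold change 1.01, standard error 0.33; limma, adjusted p = 0.703). It was 0.75, with an unadjusted p above 0.05, without LERKO replicate 2, and 1.05 without both arrays that stood apart. *Igfbp1*, named after its value was seen, had 9.40, 9.24 and 8.86 in CT and 8.24, 9.30 and 8.23 in LERKO. Only LERKO replicate 2 lay in the CT range, and the log2 fold change of −0.58 (limma, adjusted p = 0.746) became −0.93 without it. Without both arrays that stood apart it was −1.08, where its unadjusted p from limma was under 0.05. *Pck1*, the rate-limiting enzyme of gluconeogenesis and also named after its value was seen, had −0.02 (95% confidence interval −0.26 to 0.22). The 4 genes whose promoter stretches are printed above are *Irs1*, *Irs2*, *Igfbp1* and *G6pc*. Their means were lower in LERKO, by 0.26 to 0.65 on the log2 scale. They were chosen after their values were seen, so this shared direction is a description and no link to the motif was tested. The windows of other genes that insulin represses, such as *Pck1* and *Bcl6*, are not shown.

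Of 8 genes kept that insulin induces, 7 were lower and 1 higher in LERKO, with a median of −0.28, which was −0.145 without LERKO replicate 1 and −0.19 without CT replicate 3. *Elovl6*, a fatty acid elongase, had 10.74, 9.97 and 10.55 in CT and 9.59, 9.93 and 10.11 in LERKO. The groups overlapped through CT replicate 2, and the log2 fold change was −0.55 (standard error 0.22; limma, adjusted p = 0.703). It was −0.77 without CT replicate 2 and −0.39 without CT replicate 1, and −0.51 without the 2 arrays that stood apart. *Srebf1*, the transcription factor through which insulin drives lipogenesis, had −0.38 (limma, adjusted p = 0.703) and is named after its value was seen. Its log2 fold change was −0.61 without the 2 arrays that stood apart, where its unadjusted p from limma was under 0.05. The study's qPCR of SREBP-1c, a transcript of this gene, found no difference between LERKO and CT liver. With each gene centred on its 6 arrays, the list averaged 0.29, −0.08 and 0.16 in the CT mice and −0.37, 0.04 and −0.04 in the LERKO mice. LERKO replicate 1 was thus the lowest and CT replicate 1 the highest, and the groups overlapped through CT replicate 2. The mean over the repressed genes was 0.06, −0.03 and 0.00 in CT and −0.14, 0.13 and −0.02 in LERKO. LERKO replicate 1 was the lowest for this list as well, and it was also the lowest of the 6 mice for *Irs2*.

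The genes whose pattern over the 6 mice was most like that of *Irs2*, the member of widest range, were *Atp6v0d2*, *5031425E22Rik*, *Arhgap18*, *Crem* and *Ppargc1b*. Likeness was measured as the root mean square difference over the 6 arrays after each gene's own mean was subtracted, which was 0.071 for *Atp6v0d2*, a subunit of the vacuolar proton pump, and 0.142 for *Ppargc1b*, a coactivator of metabolic transcription factors. *Atp6v0d2* had 9.35, 9.49 and 8.88 in CT and 8.37, 9.04 and 8.68 in LERKO. *Crem*, a transcription factor of the cAMP response, had 6.69, 6.92 and 6.30 in CT and 5.96, 6.47 and 6.19 in LERKO. In both, as in *Irs2*, CT replicate 2 was the highest mouse and LERKO replicate 1 the lowest. The 5 genes were picked for this likeness among all named genes kept, so their closeness is a description.

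**Figure D5:**
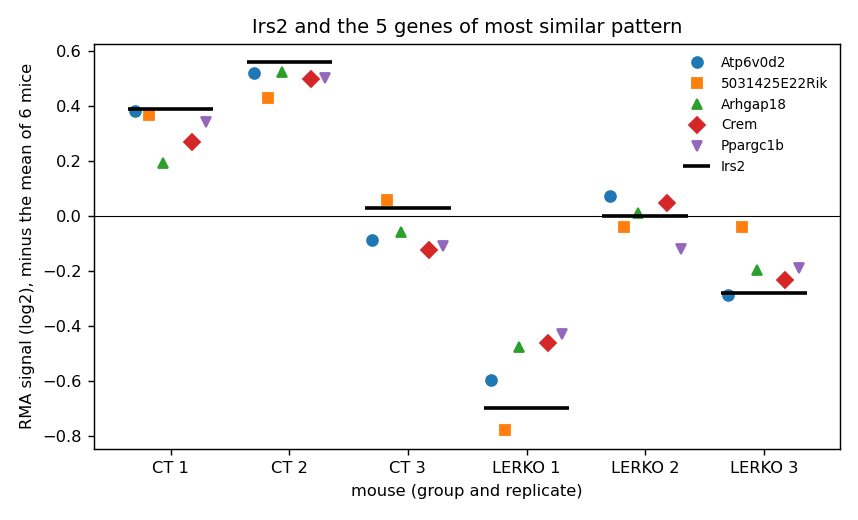
RMA signal (log2) of *Irs2* (black bars) and of the 5 genes of most similar pattern (symbols), each minus its own mean over the 6 mice, for each CT and LERKO mouse. CT replicates 1 and 2 are the highest and LERKO replicate 1 the lowest for each of the 6 genes.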

How the data were processed

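Arrays of 3 CT and 3 LERKO livers, 1 per female mouse, were grouped by their titles. Probe set signals on the log2 scale were deposited, made by the authors with RMA in the oligo package (background correction, quantile normalization and probe summary; version not stated). Quantile normalization sets differences relative to the whole array.

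The methods removed genes with signals below 100 across all samples. This was read as keeping probe sets with 100 or more in at least 1 of the 6 arrays (10633 of 35556, 7895 with 1 gene). Gene names came from the platform's annotation, updated through RefSeq. LERKO was set against CT in limma 3.58.1 (R 4.3.3; lmFit, eBayes; two-sided), and p-values were adjusted by the Benjamini-Hochberg method over the 10633 probe sets. The model was tested on simulated data. Confidence intervals are unadjusted. Precision is limited by the 6 arrays.

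The members and lists were chosen with earlier results of these data known. Named are all members, the genes of each list with an unadjusted p under 0.05 or else the 2 of smallest p, *Esr1* and the 5 genes nearest to *Irs2*; a few others were named after their values were seen. Alternatives covered the signal filter, the variance model, the normalization, the methods' t-test, the probe sets, the replicate block and left-out arrays.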

Additional observations from a re-analysis of the deposited data

How the results depend on the processing

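Of 173 values of the 9 genes under 20 alternatives, 163 kept their direction and stayed above an adjusted p of 0.05, and 10 turned in direction. In no alternative did any of the 9 genes reach an adjusted p under 0.05 in limma or in the methods' t-test.

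The values that turned belong to genes near 0. *Insr* was −0.0145 and *Foxo3* −0.149 without CT replicate 3 and LERKO replicate 2 together, *Foxo3* was −0.0459 with array weights, and *Akt2* was 0.0101 as the mean of both probe sets. With 1 array left out, the log2 fold change ranged from −0.0243 to 0.0724 for *Insr*, from −0.0669 to 0.118 for *Foxo3* and from −0.218 to 0.214 for *Trib1*.

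The number of the 9 genes at an unadjusted p under 0.05 was 2 with all arrays. It was 1 without the signal filter, with median centring, with repeated quantile normalization, with cyclic loess and with the replicate block, 0 with the methods' t-test and 4 with array weights. It was 4 without CT replicate 3 and LERKO replicate 2 together and 0 to 4 with 1 array left out, with 4 without CT replicate 3 and 0 without CT replicate 1 or CT replicate 2. For the pathway lists the number was 4 with all arrays, 8 with array weights, 2 with the methods' t-test, 7 without the pair of arrays and 2 to 8 with 1 array left out (2 without LERKO replicate 1, 8 without CT replicate 2 and 7 without CT replicate 3). Over all probe sets it was 742 of 10633 with all arrays and 1739 of 35556 without the signal filter. It was 984 with array weights, 455 with the methods' t-test and 1152 without the pair of arrays. With 1 array left out it was 416 to 1188 (416 without LERKO replicate 1 and 1188 without CT replicate 3). At an adjusted p under 0.05, 0 probe sets were higher and 0 lower with all arrays. With a signal of 100 required in all 6 arrays, another reading of the methods' filter, 3 were lower, and 1 was lower with a trend. With 1 array left out, 0 to 1 were higher, the 1 without LERKO replicate 3. The cause of these changes in number was not tested.

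Samples with the same replicate number did not deviate together (correlations of −0.157, −0.073 and −0.137), so the numbers were not used as pairs. With the replicate block in limma, 1 of the 9 genes, *Irs2*, had an unadjusted p under 0.05 (adjusted p = 0.863), its log2 fold change was unchanged at −0.651, and *Foxo1* had an adjusted p = 0.908.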
